A study of Mus musculus with 6 samples.

Results

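The genes described here carry glucose into the cell, break it down to pyruvate and lactate, or belong to the transcriptional answer to low oxygen. They are 34 genes chosen by name as known members of these pathways. A probe was found for 31 of them, among 19057 genes with a probe of 1 symbol, and these 31 had 57 of the 45281 probes on the array, and no probe carried the symbol *Hk2*, *Gpi1* or *Eno1*. RNA came from whole *Mus musculus* embryos at E8.0 to E8.5 on the C3H/HeH background, in 3 pools of Zic2 iso/iso embryos and 3 pools of wildtype embryos from crosses of Zic2 iso/+ parents. Each pool held 8 stage-matched embryos and was read on its own Illumina Mouse WG6 v2 array. The study used embryos of both sexes, and the sexes in each pool are not given. The iso allele is a recessive stop-gain change in *Zic2*, a zinc finger transcription factor, and it is present in every cell of the mutant embryo. The comparison of the genotypes was made as an open screen for transcripts that depend on *Zic2*, and the genes below show what it gave for glucose use and oxygen sensing.

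Glycolysis turns glucose into pyruvate in the cytoplasm and yields energy without oxygen. Early mouse embryos are known to take up much glucose and to release much of it as lactate while their blood circulation is still forming. Hypoxia-inducible factor (HIF) is a pair of transcription factor subunits, of which the alpha subunit is hydroxylated and destroyed when oxygen is plentiful. When oxygen is scarce the pair binds a short DNA core and switches on glucose transporters, glycolytic enzymes, lactate exporters and blood vessel growth factors, so that many of these genes belong to 1 regulated group.

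The starts of the member genes had this core more often than promoters in general. The core was searched as ACGTG and as GCGTG, on either strand, in the 300 bases from 250 before to 50 after each start in RefSeq (GRCm38.p6). A sequence was found for 32 of the 34 genes, in 45 windows. ACGTG was in 25 of these windows (55.6%), against 19.6% of all 32851 windows. GCGTG was in 29 (64.4%), against 32.4%. By gene, 30 of 32 (93.8%) had at least 1 of these cores, against 46.7% of 27025 genes, and the genes with neither were *Gpi1* and *Tpi1*. The median GC content of the member windows was 63.3% and that of all windows 52.7%, and its part in this excess was not tested. The palindrome CACGTG, which contains ACGTG on each strand and is also the core bound by MYC and USF, was in 4 windows (8.89%), against 7.15%. A match is a run of letters and does not show binding. The following stretches are shown because they hold cores in members of each role. Each is written 5′ to 3′ on the strand of its gene, with the cores in capitals, and CACGT and CACGC are the cores read from the other strand.
Slc2a1, chr4:119108697-119108725, plus strand: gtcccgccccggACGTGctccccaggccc
Pgk1, chrX:106186938-106186985, plus strand: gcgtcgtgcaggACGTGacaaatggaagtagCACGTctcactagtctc
Ldha, chr7:46845647-46845786, plus strand: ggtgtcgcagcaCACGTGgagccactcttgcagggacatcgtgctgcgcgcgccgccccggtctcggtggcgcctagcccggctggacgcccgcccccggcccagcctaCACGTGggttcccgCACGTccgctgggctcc
Slc16a3, chr11:120949028-120949066, plus strand: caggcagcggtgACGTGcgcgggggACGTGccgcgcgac
Ankrd37, chr8:45999851-46000100, minus strand: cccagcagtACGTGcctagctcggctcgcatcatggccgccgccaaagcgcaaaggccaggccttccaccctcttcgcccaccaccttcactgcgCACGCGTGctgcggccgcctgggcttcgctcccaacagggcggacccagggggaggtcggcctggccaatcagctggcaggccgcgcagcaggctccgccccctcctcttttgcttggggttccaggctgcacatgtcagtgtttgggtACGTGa
P4ha2, chr11:54100834-54100862, plus strand: tgtgcatcgcatACGTGcagcGCGTGgcg

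**Figure D1:**
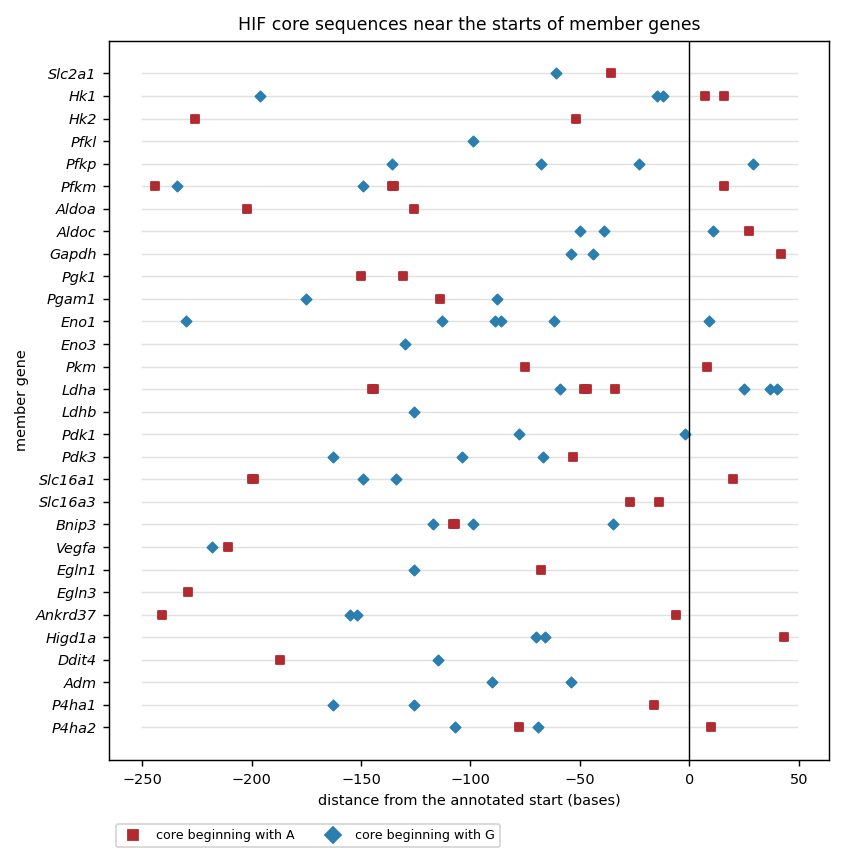
Position of each HIF core (squares for the core beginning with A, diamonds for the core beginning with G) along the horizontal axis as the distance in bases from the annotated start, for each member gene with at least 1 core (vertical axis). Over the 30 genes shown, cores lay on both sides of the start. Most lay upstream, as did most of the searched window, which ran from 250 bases before to 50 after the start. A preference for either side was not tested.

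Values below are quantile-normalised intensities on the log2 scale, which depend on the probe as well as on the transcript, so that only the same probe is compared between pools. The brightest probe of a gene over the 6 pools stands for the gene. A probe was taken as above background when its mean was over 7.47, the level under which 95% of 1608 probes for olfactory, vomeronasal and other silent gene families lay, and 40.7% of all probes were above it. The deposited intensities had pool medians of 154 to 187, and the first Zic2 iso/iso pool had the highest. Of the 2 probes for *Zic2* itself, the brighter gave 8.27, 8.06 and 8.00 in the wildtype pools and 7.64, 7.57 and 8.01 in the Zic2 iso/iso pools (adjusted p = 0.61 by limma). The other, just above background, went the other way. It gave 7.28, 7.53 and 7.46 in wildtype and 7.56, 7.60 and 7.46 in Zic2 iso/iso (adjusted p = 0.92 by limma). A stop-gain allele need not lower its transcript. Fewer cells of a type and less RNA per cell cannot be told apart in these whole-embryo pools.

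No glycolysis or hypoxia response gene passed the threshold between the genotypes. Against a background of 20 of all 45281 probes past an adjusted p of 0.05 (0.0442%; 18 lower and 2 higher in Zic2 iso/iso), the members gave 0 of 31 genes and 0 of 57 probes by limma. By unadjusted p under 0.05 they gave 1 gene, *Hk1*, against 6.02% of all probes. The smallest adjusted p of a member gene was 0.82, also that of *Hk1*, whose probes were not above background. Pools of the genotypes did not overlap for 1 of 31 member genes, where 10.6% of all probes did not overlap.

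**Figure D2:**
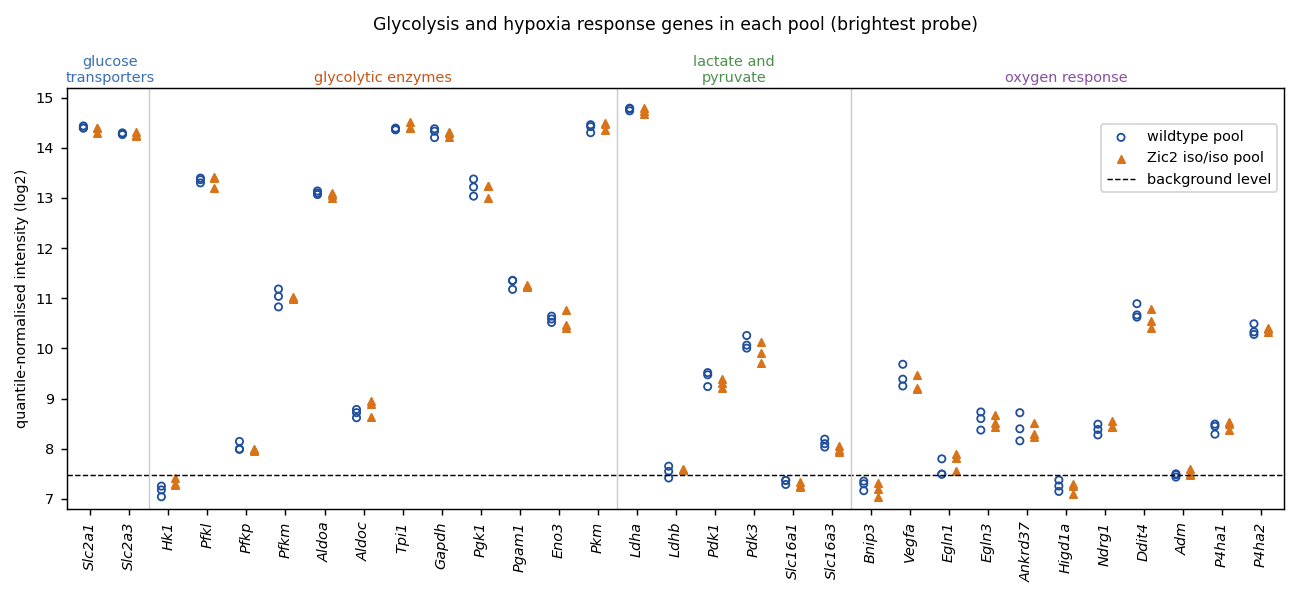
Quantile-normalised intensity (log2, vertical axis) of the brightest probe of each of 31 member genes in every pool, with circles for wildtype and triangles for Zic2 iso/iso, grouped by role. Circles and triangles interleave for every gene apart from Hk1, which lies below the background level of 7.47 (dashed line).

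Of the 31 genes, 27 were above background, and their differences (Zic2 iso/iso minus wildtype) ran from -0.19 for *Pdk3* to 0.16 for *Egln1*. The difference was negative for 18 of them and positive for 9, with a median of -0.03, beside 0.00 over all 18452 probes above background. Without normalisation between arrays this median was 0.06, beside 0.08 over all probes above background, and with median centring 0.01, beside 0.03. Its sign depended on the scaling, and under each of these scalings it was lower than that of all probes above background. The 4 genes not above background were *Hk1*, *Slc16a1*, *Bnip3* and *Higd1a*. *Ldhb* and *Adm* lay just above this level and not above the 99th percentile of the silent families (7.61).

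The 95% intervals of these differences in intensity lay within 1.5-fold, while closer bounds depended on the processing. The 95% interval lay within 1.2-fold either way for 19 of the 27 genes (70.4%; 59.0% of all probes above background) and within 1.5-fold for all 27 (98.9% of all probes above background). These intervals are on intensities from which background was not known to be subtracted, and such background draws the folds of dim probes towards none. The normexp offset of 50 and variance stabilisation, used below, also shrink the folds of dim probes. The intervals therefore do not bound the change in transcript of dim members such as *Egln1*, *Ldhb* and *Adm*. After normexp background correction, 3 of the 27 intervals lay within 1.2-fold and again 27 within 1.5-fold. With rewritten variance stabilisation 4 lay within 1.2-fold, with median centring 14 and without normalisation between arrays 0. Under each of these, 27 lay within 1.5-fold. Bright genes had wider intervals too: with normexp the difference of *Ldha* stayed at -0.04 while its SE went from 0.06 to 0.11. The residual SD between pools of a genotype had a median of 0.088 over the 27 genes and 0.106 over all probes above background.

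**Figure D3:**
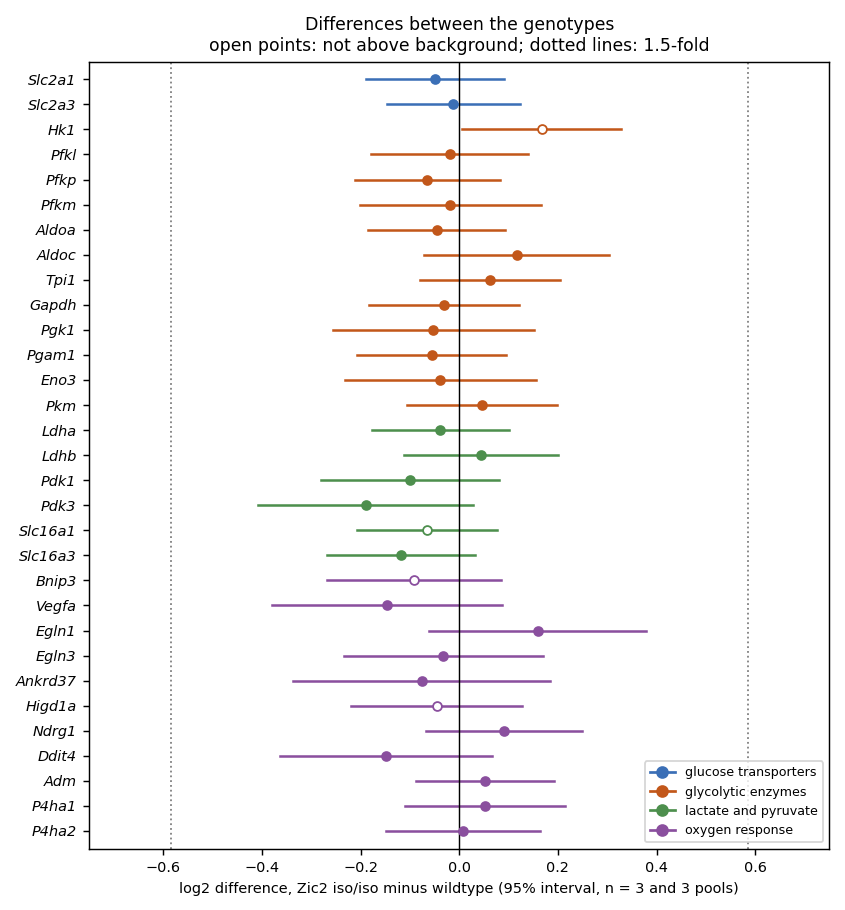
Log2 difference of each member gene (horizontal axis, Zic2 iso/iso minus wildtype) with its 95% interval from limma, n = 3 and 3 pools. Every interval lies inside the dotted lines at 1.5-fold, and only that of Hk1, an open point for a probe not above background, leaves out 0.

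The glucose transporters were bright and, after normalisation, alike in all pools. *Slc2a1*, which encodes GLUT1, the transporter of most embryonic cells, gave 14.40, 14.39 and 14.44 in wildtype and 14.29, 14.39 and 14.40 in Zic2 iso/iso. The first Zic2 iso/iso pool was the lowest and the groups overlapped, with a difference of -0.05 (SE 0.06, n = 3 and 3, adjusted p = 0.97 by limma). *Slc2a3*, which encodes the high-affinity transporter GLUT3, gave 14.28, 14.30 and 14.27 in wildtype and 14.23, 14.26 and 14.31 in Zic2 iso/iso. Its highest and its lowest values were both in Zic2 iso/iso pools, and the difference was -0.01 (95% interval -0.15 to 0.12).

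The first steps of glycolysis trap glucose and commit it. *Hk1* encodes hexokinase 1, which phosphorylates glucose, and its brighter probe gave 7.04, 7.25 and 7.18 in wildtype and 7.29, 7.27 and 7.41 in Zic2 iso/iso. All 3 Zic2 iso/iso pools were above all 3 wildtype pools, and the means differed by 0.17 (SE 0.07, unadjusted p = 0.044 and adjusted p = 0.82 by limma; exact two-sided permutation p = 0.1, the smallest that 3 against 3 pools can give). The other *Hk1* probe differed by -0.08, and neither was above background, so that these values set no direction for the gene. Phosphofructokinase, the committing step, is built from the products of *Pfkl*, *Pfkp* and *Pfkm*. *Pfkl* gave 13.40, 13.30 and 13.36 in wildtype and 13.20, 13.41 and 13.39 in Zic2 iso/iso. Its lowest and highest pools were both mutant. *Pfkm* gave 10.83, 11.18 and 11.04 in wildtype and 10.99, 11.02 and 10.98 in Zic2 iso/iso, so that the 3 mutant pools fell inside the wildtype range. *Pfkp* gave 7.99, 8.00 and 8.14 in wildtype and 7.98, 7.95 and 8.00 in Zic2 iso/iso. The differences of the 3 subunits were -0.02, -0.06 and -0.02 for *Pfkl*, *Pfkp* and *Pfkm*.

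Aldolase and triose phosphate isomerase split and sort the sugar. *Aldoa* encodes the main aldolase and gave 13.10, 13.14 and 13.07 in wildtype and 13.10, 13.07 and 13.00 in Zic2 iso/iso, a difference of -0.05. *Aldoc*, the brain form, gave 8.78, 8.62 and 8.72 in wildtype and 8.63, 8.95 and 8.88 in Zic2 iso/iso. Mutant pools 2 and 3 were above all wildtype pools and pool 1 was not, and the difference was 0.12 (SE 0.09, adjusted p = 0.93 by limma). *Tpi1*, which encodes the isomerase, gave 14.36, 14.37 and 14.39 in wildtype and 14.40, 14.52 and 14.39 in Zic2 iso/iso. The second mutant pool stood above the other 5, and the difference was 0.06.

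The payoff enzymes, which return energy, also differed by less than the spread between pools. *Gapdh*, the dehydrogenase to which the study scaled its qPCR, gave 14.38, 14.20 and 14.33 in wildtype and 14.21, 14.31 and 14.30 in Zic2 iso/iso. All 3 mutant pools lay within the wildtype range, with a difference of -0.03 (SE 0.07, 95% interval -0.18 to 0.12, adjusted p = 0.98 by limma). *Pgk1*, the first enzyme of glycolysis to make ATP, gave 13.04, 13.22 and 13.38 in wildtype and 13.24, 13.24 and 13.00 in Zic2 iso/iso. Wildtype pools spanned more than the difference of -0.05 between the genotypes. *Pgam1*, a mutase, gave 11.36, 11.35 and 11.18 in wildtype and 11.23, 11.22 and 11.27 in Zic2 iso/iso, a difference of -0.06. *Eno3*, the enolase best known from muscle, gave 10.64, 10.52 and 10.59 in wildtype and 10.46, 10.76 and 10.41 in Zic2 iso/iso. Its highest and lowest pools were mutant, and the difference was -0.04. *Pkm*, pyruvate kinase, which makes pyruvate and ATP, gave 14.46, 14.42 and 14.30 in wildtype and 14.36, 14.47 and 14.49 in Zic2 iso/iso, a difference of 0.05 (SE 0.07).

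A second *Pkm* probe, annotated to a different transcript record, gave the largest difference of any member probe. It read 8.23, 8.40 and 8.44 in wildtype and 7.90, 8.27 and 7.89 in Zic2 iso/iso. The second mutant pool reached above the lowest wildtype pool, and the difference was -0.34 (SE 0.10, unadjusted p = 0.0052, adjusted p = 0.61 by limma). *Pkm* makes 2 main spliced forms, M1 and M2, and which form this probe reads was not tested.

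The genes that decide between lactate and the mitochondrion had mostly negative differences, none past the threshold. *Ldha*, which turns pyruvate to lactate and has 5 ACGTG matches over both strands in the stretch printed above, gave 14.74, 14.79 and 14.78 in wildtype and 14.73, 14.79 and 14.68 in Zic2 iso/iso, a difference of -0.04 (95% interval -0.18 to 0.10). *Ldhb*, the form that favours the reverse reaction, gave 7.41, 7.55 and 7.65 in wildtype and 7.60, 7.57 and 7.57 in Zic2 iso/iso, close to background throughout. *Pdk1* and *Pdk3* encode kinases that shut the pyruvate dehydrogenase complex. *Pdk3* gave 10.01, 10.26 and 10.06 in wildtype and 9.71, 9.92 and 10.13 in Zic2 iso/iso. The first 2 mutant pools were below all wildtype pools and the third was not, and the difference was -0.19 (SE 0.10, 95% interval -0.41 to 0.03, adjusted p = 0.89 by limma). *Pdk1* gave 9.47, 9.24 and 9.52 in wildtype and 9.32, 9.39 and 9.21 in Zic2 iso/iso, a difference of -0.10.

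Lactate leaves the cell through monocarboxylate transporters. *Slc16a3*, the exporter MCT4, gave 8.19, 8.10 and 8.03 in wildtype and 7.97, 8.06 and 7.94 in Zic2 iso/iso. The second mutant pool lay above the lowest wildtype pool, and the difference was -0.12 (SE 0.07, adjusted p = 0.90 by limma). *Slc16a1*, the transporter MCT1, was not above background, at 7.29 to 7.37 in wildtype and 7.23 to 7.34 in Zic2 iso/iso. Averaged over the 5 genes of this role above background, each pool's deviation from the gene means was 0.02, 0.04 and 0.06 in wildtype and -0.08, -0.00 and -0.04 in Zic2 iso/iso. These pool means did not overlap, and as they follow 5 genes chosen with their values known they carry no test.

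Oxygen sensing and its targets made up the remaining role. *Egln1* and *Egln3* encode prolyl hydroxylases that mark HIF alpha for destruction and are themselves HIF targets. The brightest *Egln1* probe gave 7.80, 7.49 and 7.49 in wildtype and 7.81, 7.89 and 7.55 in Zic2 iso/iso. The first wildtype pool sat among the mutant pools, and the difference was 0.16 (SE 0.10, adjusted p = 0.92 by limma), while the other *Egln1* probes gave -0.09 and 0.00. *Egln3* gave 8.37, 8.60 and 8.73 in wildtype and 8.44, 8.502 and 8.66 in Zic2 iso/iso, with all mutant pools inside the wildtype range and a difference of -0.03.

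*Vegfa*, the growth factor for blood vessels, gave 9.25, 9.39 and 9.68 in wildtype and 9.47, 9.19 and 9.22 in Zic2 iso/iso. The third wildtype pool was the highest of the 6, and the difference was -0.15 (SE 0.11, adjusted p = 0.93 by limma). *Adm*, the vasodilator peptide adrenomedullin, gave 7.48, 7.50 and 7.43 in wildtype and 7.49, 7.48 and 7.59 in Zic2 iso/iso, at the background level. *Ankrd37*, a well-known HIF target of little-known function, gave 8.40, 8.16 and 8.72 in wildtype and 8.51, 8.29 and 8.24 in Zic2 iso/iso. It had the widest interval of the 27 genes, -0.34 to 0.18, and both the highest and the lowest pool were wildtype.

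Of the genes for growth and survival in low oxygen, *Ddit4*, an inhibitor of the growth kinase mTORC1, gave 10.89, 10.62 and 10.67 in wildtype and 10.54, 10.79 and 10.41 in Zic2 iso/iso. Mutant pool 2 lay above wildtype pools 2 and 3, and the difference was -0.15 (SE 0.10, adjusted p = 0.92 by limma). *Ndrg1*, a stress-induced gene, gave 8.38, 8.49 and 8.27 in wildtype and 8.44, 8.43 and 8.55 in Zic2 iso/iso, a difference of 0.09. *Bnip3*, a trigger of mitochondrial clearance, and *Higd1a*, a mitochondrial protein, were not above background. Their pools ran from 7.04 to 7.35 and from 7.09 to 7.37, with differences of -0.09 and -0.05.

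Prolyl 4-hydroxylases of the P4HA family modify collagen and are separate enzymes from the HIF hydroxylases. *P4ha1* gave 8.45, 8.49 and 8.29 in wildtype and 8.49, 8.52 and 8.37 in Zic2 iso/iso, a difference of 0.05. The brightest *P4ha2* probe gave 10.28, 10.49 and 10.33 in wildtype and 10.41, 10.38 and 10.33 in Zic2 iso/iso, with a difference of 0.01. Its next probe gave 9.12, 9.26 and 9.07 in wildtype and 8.90, 9.01 and 9.06 in Zic2 iso/iso, so that all mutant pools were below all wildtype pools (difference -0.16, SE 0.07, unadjusted p = 0.047, adjusted p = 0.83 by limma).

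Probes of 1 gene did not always point the same way. Of the 17 genes with several probes, 11 had at least 1 probe whose difference had the opposite sign from the brightest one and lay more than 1 SE from it. These were *Hk1*, *Pfkp*, *Pfkm*, *Aldoc*, *Tpi1*, *Pgk1*, *Pkm*, *Egln1*, *Egln3*, *Ndrg1* and *P4ha2*. The 12 probes concerned differed by -0.34 for *Pkm*, -0.16 for *P4ha2*, -0.09 for *Aldoc* and *Egln1*, -0.08 for *Hk1* and *Tpi1*, and -0.01 for *Ndrg1*. On the positive side they differed by 0.05 and 0.11 for *Pfkp*, 0.08 for *Pfkm*, 0.11 for *Egln3* and 0.13 for *Pgk1*. Over all 57 member probes, 14 were not above background and 5 had pools that did not overlap, 3 of them lower and 2 higher in Zic2 iso/iso, which is 8.77% beside 10.6% of all probes.

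**Figure D4:**
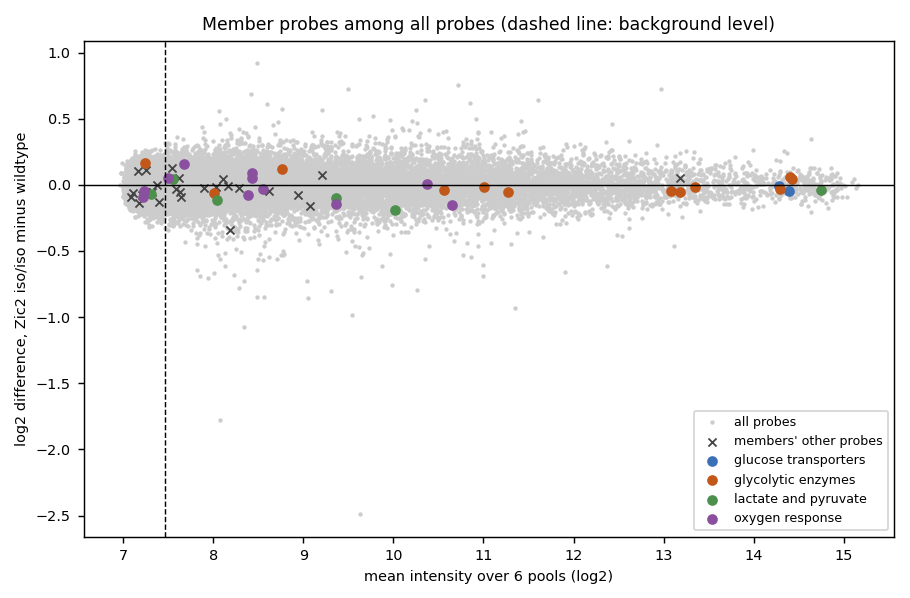
Log2 difference (vertical axis, Zic2 iso/iso minus wildtype) against mean intensity over 6 pools (log2, horizontal axis) for all 45281 probes in grey, the brightest probe of each member in the colour of its role and the members' other probes as crosses. The member probes lie between -0.34 and 0.17, inside the cloud of all probes, while single probes outside the group reach -2.49.

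Pool by pool the 27 genes above background did not move as 1 block. Their mean deviation from the gene means was 0.00, 0.00 and 0.03 in the wildtype pools and -0.03, 0.03 and -0.03 in the Zic2 iso/iso pools. The third wildtype pool held the highest value for 8 of the 27 genes (29.6%), as it did for 19.7% of all probes above background. The first Zic2 iso/iso pool held the highest for 0, and for 19.2% of all probes above background. The third Zic2 iso/iso pool held the lowest for 7 (25.9%), and for 17.0% of all probes above background. The glycolytic enzymes were highest on average in the second Zic2 iso/iso pool (0.05) and lowest in the first (-0.05), so that for this role the widest gap between pools was within the mutant genotype.

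**Figure D5:**
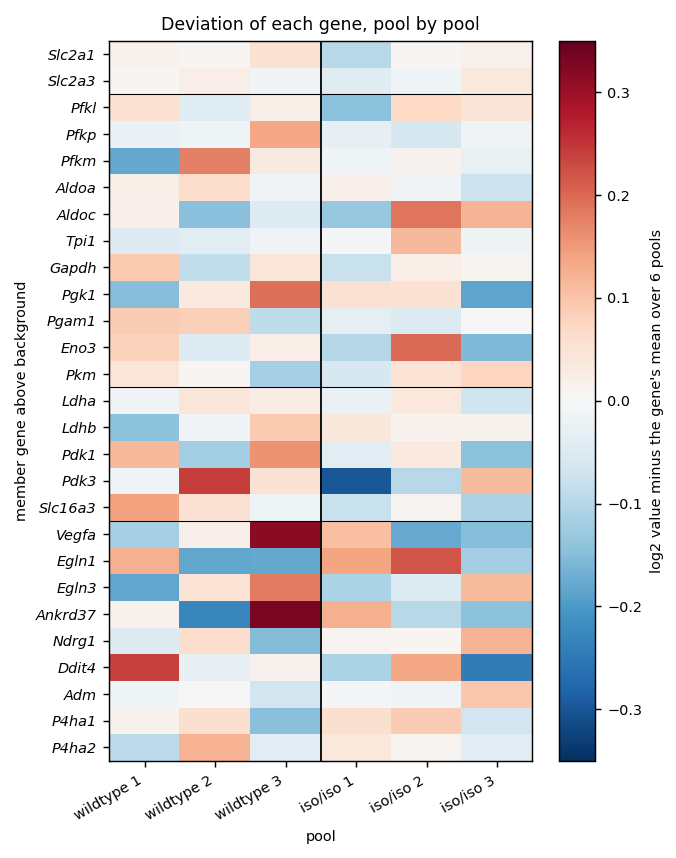
Deviation of each of 27 member genes above background (rows) from its own mean over 6 pools, on the log2 scale, for each pool (columns), with red above and blue below the mean and lines between roles. Red and blue are found on both sides of the line between genotypes.

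Some of the other genes that control or extend these pathways had pools that did not overlap, and 0 of 109 genes with a probe, on 7 lists, passed the threshold. By unadjusted p under 0.05 from limma there were 12 of 109 (11.0%, beside 6.02% of all probes), and pools did not overlap for 17 (15.6%, beside 10.6% of all probes). Over the 74 above background the median difference was -0.03. These lists were drawn up with earlier results of the data known.

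Among HIF and its regulators, 13 of 15 were above background, and pools did not overlap for 3 of the 15, beside 10.6% of all probes. These 3 were higher in Zic2 iso/iso. *Cited2*, which competes with HIF for the coactivators p300 and CBP, gave 12.42, 12.38 and 12.38 in wildtype and 12.67, 12.57 and 12.58 in Zic2 iso/iso. Its difference of 0.22 (SE 0.06, adjusted p = 0.61 by limma) was the largest of the list. The others were *Hif1an*, the asparaginyl hydroxylase that also restrains HIF (0.18, adjusted p = 0.80), and *Arnt*, its beta subunit (0.10, adjusted p = 0.92). *Hif1a*, the oxygen-regulated alpha subunit, gave 8.47, 8.37 and 8.57 in wildtype and 8.31, 8.34 and 8.46 in Zic2 iso/iso (-0.10), and *Epas1*, the HIF2 alpha subunit, was not above background. HIF is mainly controlled at the level of its protein, which arrays do not read.

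Of the other hypoxia targets, 24 of 34 were above background, with a median of -0.07. Over all 34, pools did not overlap for 2 higher and 4 lower genes (17.6%, beside 10.6% of all probes), and 1 of the lower genes, *Ccng2*, was not above background. *Angpt2*, a ligand of the endothelial receptor TIE2, gave 8.39, 8.61 and 8.64 in wildtype and 8.22, 8.21 and 8.16 in Zic2 iso/iso, a difference of -0.35 (SE 0.08, adjusted p = 0.25 by limma). The mean of the 6 endothelial markers above background, of 7 with a probe, was 8.41 to 8.54 in wildtype and 8.22 to 8.40 in Zic2 iso/iso. Of these 6 markers, 2 had a positive and 4 a negative difference, from -0.39 to 0.09. The part of this mean in the *Angpt2* value was not tested.

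Of the other glycolysis genes, 11 of 18 were above background, with a median of -0.04. *Pgam2*, the muscle form of the mutase, gave 9.66, 9.83 and 9.89 in wildtype and 9.27, 9.66 and 9.38 in Zic2 iso/iso, a difference of -0.36 (SE 0.10, adjusted p = 0.53 by limma). The mean of 7 heart markers, all above background, was 9.78 to 9.96 in wildtype and 9.13 to 9.74 in Zic2 iso/iso, and its part in the *Pgam2* and *Eno3* values was not tested. On the pyruvate dehydrogenase and carrier list, 8 of 14 were above background with a median of 0.12, beside 0.00 over all probes above background. Of these 8, 7 had a positive difference, beside 9254 of all 18452 probes above background. Pools did not overlap for 3 higher and 1 lower of the 14 (28.6%, beside 10.6% of all probes). Unadjusted p by limma was under 0.05 for 4 of the 14, beside 6.02% of all probes. *Ldhc*, the lactate dehydrogenase best known from testis, led this list with a difference of 0.24 (adjusted p = 0.63 by limma). It gave 8.53, 8.56 and 8.42 in wildtype and 8.72, 8.66 and 8.87 in Zic2 iso/iso.

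The pentose phosphate pathway, which draws off glucose for nucleotides and reducing power, had 4 of 8 genes above background and a median of -0.11. Its transketolase gene *Tkt* went the other way, from 12.26, 12.24 and 12.19 in wildtype to 12.38, 12.35 and 12.45 in Zic2 iso/iso (0.16, adjusted p = 0.79 by limma). The gluconeogenesis list had 3 of 7 above background, led by *Fbp2*, a fructose bisphosphatase (-0.08). *Fbp2* lay just above this level and not above the 99th percentile of the silent families. The list of growth factor and MYC control of glycolysis had 11 of 13 above background and a median of 0.05, led by *Txnip*, which curbs glucose uptake (-0.17).

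Markers of what the pools held were read in the same way, and 0 of them passed the threshold by limma. Unadjusted p was under 0.05 for 4 of 7 heart, 4 of 11 stage, 2 of 7 endothelial and 1 of 9 yolk sac markers, beside 6.02% of all probes. The mean of the 6 primitive red blood cell markers above background, of 8 with a probe, ran from 9.26 to 9.75 in wildtype and from 8.55 to 9.80 in Zic2 iso/iso, the third mutant pool being the lowest. The mean of the 5 immediate-early genes above background, of 10 with a probe, was 8.22 to 8.28 in wildtype and 8.19 to 8.20 in Zic2 iso/iso. Of these 5 genes, 1 had a positive and 4 a negative difference. Means of the markers above background on the lists for yolk sac (9 of 9 above background), trophoblast and decidua (3 of 6), neural plate (4 of 8) and stage (7 of 11) overlapped between the genotypes. These means joined markers with opposite differences. The 7 stage markers ran from -0.52 to 0.32, with 4 positive and 3 negative. The 9 yolk sac markers ran from -0.16 to 0.50, with 7 positive and 2 negative. The part of these lists in the member values was not tested.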

How the data were processed

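The authors deposited linear intensities of the probes of 6 arrays, 1 for each pool of 8 embryos. Pool minima of 104 to 122 and medians of 154 to 187 showed no sign of background subtraction or of normalisation between arrays. As the values were linear with unequal medians, the variance stabilising normalisation of the study's methods was taken not to be in them. A floor of 1 was set, values were converted to log2 and quantile normalised, and all 45281 probes were fitted with limma 3.58.1 (lmFit and eBayes, R 4.3.3) as Zic2 iso/iso minus wildtype, without covariates. Benjamini-Hochberg adjustment ran over the whole set of probes, and adjusted p had to be under 0.05. No filter on dim probes was applied. Groups came from the sample labels, and pools were taken as independent samples. The number of arrays, 3 for each genotype, limits the precision.

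Symbols came from the platform annotation, updated through RefSeq gene tables of GRCm38.p6 (34885 probes with 1 symbol, 18 with several, 10378 with none). All member genes are named, each by its brightest probe, with other probes given where they differ in direction by more than 1 SE. Other genes are those with the largest difference above background on each pathway list, and *Arnt*, *Hif1an*, *Hif1a*, *Epas1* and *Ccng2* were added after their values were seen. Genes on the pathway and marker lists were read by their brightest probe alone, and their further probes were not examined. The members and lists were chosen with earlier results of these data known. The fit was tested on simulated data. Alternatives were no normalisation between arrays, median centring, normexp (offset 50) for the background, variance stabilisation as rewritten here, a filter on dim probes, a trended or robust prior, array weights, the replicate block, probes averaged by gene, other thresholds and leaving out each pool.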

Additional observations from a re-analysis of the deposited data

How the results depend on the processing

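The count of 0 member genes past the threshold held under each of 18 alternative settings, where 554 values of 31 genes gave a smallest adjusted p of 0.56 by limma (*Egln1* without wildtype replicate 1). The values ran from -0.29 (*Pdk3* without Zic2 iso/iso replicate 3) to 0.32 (*Hk1* with normexp), uncalled differences changed sign 48 times, and 13 genes kept their sign throughout. An adjusted p of 0.10 or 0.01 was read on the main fit, where the smallest member value was 0.82, so these settings could give only 0. The other thresholds, the priors, the replicate block and the filter on dim probes left the differences unchanged, so no sign could change under them. All probes past the threshold numbered 20, with 4 without normalisation between arrays, 11 with median centring, 13 with the mean of a gene's probes, 31 with an intensity trend and 34 at an adjusted p of 0.10, and 14 to 29 on leaving out a replicate. Member genes without overlap numbered 1, beside 10.6% of all probes. Among probes above background they numbered 0, beside 1006 higher and 1179 lower of all 18452 such probes. They numbered 2 without normalisation, with median centring, with variance stabilisation and with the mean of a gene's probes. On leaving out a replicate they numbered 3 to 7, where fewer pools have to line up. For these last settings the share over all probes was not counted, so the counts are not read as results. The median difference was -0.03, with 0.063 without normalisation and 0.015 with median centring, and -0.05 to -0.01 on leaving out a replicate. Over all probes above background it was 0.078 without normalisation and 0.029 with median centring. With the stricter background level 25 members were above it. Apart from the leaving out of pools, the cause of these shifts was not tested. Same-numbered pools deviated with correlations of -0.13, -0.02 and -0.12, which are too few to settle whether the numbers pair them. The study compared mutants with littermate controls, and the labels do not say whether same-numbered pools share litters. With the replicate block 17 probes and 0 member genes passed, 1 member gene did not overlap and the median was -0.03.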

Other observations

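Genes beside the members were read after their values had been seen and are given as values only. The symbol *Eno1* had no probe, but its processed copy *Eno1b*, whose transcript sequence is nearly that of *Eno1*, had 1 probe. It gave 9.004, 9.03 and 9.15 in the wildtype pools and 8.69, 8.86 and 8.73 in the Zic2 iso/iso pools, a difference of -0.30 (SE 0.07, unadjusted p = 0.0011, adjusted p = 0.37 by limma). All 3 mutant pools were below all 3 wildtype pools, and whether the probe also reads *Eno1* was not tested.

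Among the other hypoxia targets, *Fam162a*, a HIF-induced mitochondrial protein, gave 11.98, 11.82 and 11.78 in wildtype and 12.16, 12.24 and 12.06 in Zic2 iso/iso, a difference of 0.29 (adjusted p = 0.47 by limma). *Flt1*, the VEGF receptor that also acts as a decoy, gave 9.91, 9.73 and 9.66 in wildtype and 10.03, 10.05 and 10.04 in Zic2 iso/iso, a difference of 0.28 (adjusted p = 0.49). *Ppp1r3c*, a subunit that steers a phosphatase to glycogen, had 8.60 in its highest Zic2 iso/iso pool and 8.69 in its lowest wildtype pool, with a difference of -0.23 (adjusted p = 0.70). Pools did not overlap for these 3 genes, which lay in opposite directions, and 10.6% of all probes also did not overlap.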
